A study of Drosophila melanogaster with 12 samples.

Results

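The genes described here are CG3984, CG16926, CG8661, CG13239, CG42329, CG5397 and CG34227 of Drosophila melanogaster, 7 protein-coding genes that the annotation knows only by a CG number. They were chosen because their signal differed between populations kept under the same selection regime, so those differences were part of the choice and are described below by their values. Counts of them that pass a test are fixed by that choice and support nothing. Every probe set that the array annotation assigns to 1 of them was taken, which gave 8 of the 13966 probe sets that are not controls, and 7 of 10844 named genes. All 8 were bright enough to pass the filter on dim probe sets, a mean signal over the 12 arrays above 641.2, and these kept probe sets are the ones tested. CG42329 has 2 probe sets, called here the brighter and the dimmer, and each of the others has 1. The working description of the group, genes high in a single population, held only in part. All 3 arrays of 1 population lay above the 9 other arrays for 3 of the 8 probe sets, CG3984 in aggressive I and both of CG42329 in neutral I. All 3 arrays of 1 population lay below the others for 6 of the 8. These were CG3984, CG16926 and CG8661 in aggressive II, CG13239 in aggressive I, and CG34227 and the brighter probe set of CG42329 in neutral II. For CG5397 neither held, since 2 populations were high and 2 were low. Among all 8379 kept probe sets, an aggressive I above the rest was seen in 1.83% and one below in 2.28%. The shares were 1.06% and 1.11% for aggressive II, 0.752% and 0.752% for neutral I, and 1.27% and 1.11% for neutral II. The choice of genes fixes such counts in large part, so nothing is read from them.

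RNA came from heads of 5-day-old Canton-S males, a wild-type laboratory stock, at generation 21 of selection. Aggressive I and aggressive II are populations selected for more male aggression. The reference populations, neutral I and neutral II, went through selection for a decrease, to which the submitters report no significant response. Each population had 3 Affymetrix arrays, 12 in all, and flies came at random from culture bottles, were frozen about 120 at a time within the same interval of the day and were kept about 40 together. For 2 neutral I arrays the line label lacks the word selected; both were grouped by title. Whether replicate arrays stand for separate cultures is not stated, so p-values measure only the spread between these arrays, which may be technical.

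A CG number is the name given to a gene model predicted from the genome sequence, and a gene keeps it as its symbol until it is given another. Selection experiments keep replicate populations because a population is bred on its own from generation to generation. A difference seen between populations of the same regime does not follow the regime label. Whether it follows the level of aggression in each population was not tested here. Heads hold brain, compound eyes, muscle, cuticle, blood cells and fat body, the insect tissue that stores fat and protein, so a head signal adds up RNA of all of them. Fewer cells of a type and less RNA per cell cannot be told apart in it.

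Signal is the MAS5 intensity of a probe set, a linear measure of brightness that was scaled to the same trimmed mean on every array. Log2 values are of signal plus 94.6, centred on the median of each array, and differences are between population means on that scale. A probe set is said to pass where limma's adjusted p, over all 8379 kept probe sets, was under 0.05. Median signal per array lay between 962.4 and 1050.4. The mean correlation of an array with the other arrays was lowest for neutral I array 3 (r = 0.949) and aggressive I array 2 (r = 0.951), against 0.956 to 0.962 for the rest, over 8379 probe sets. Aggressive I array 2 also had the highest signal of 18S ribosomal RNA, 38318. Arrays 1 and 3 of aggressive I had 17640 and 16618, against 5894 to 16192 in the other populations. All 7 measured photoreceptor markers passed the filter on dim probe sets, while 1 of 11 markers of the male accessory gland and 4 of 11 of testis did.

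**Figure D1:**
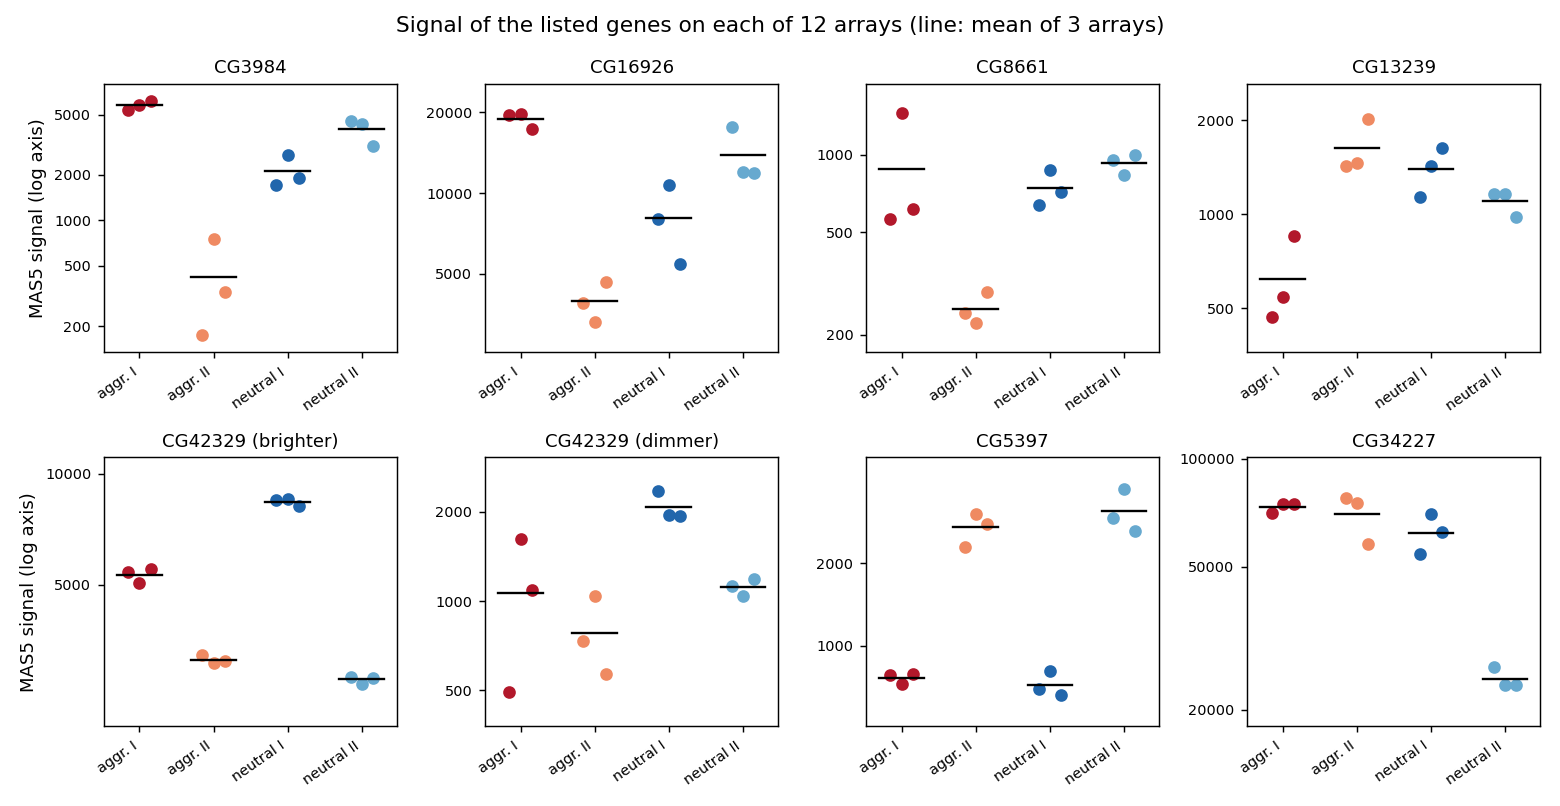
MAS5 signal on a log axis for the 8 probe sets of the listed genes, with 1 point per array and a line at the mean of the 3 arrays of each population. CG3984, CG16926 and CG8661 were lowest in aggressive II, CG13239 in aggressive I and CG34227 in neutral II, while CG42329 (brighter probe set) and CG5397 were high in opposite pairs of populations.

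CG3984 had the widest range of the listed genes. Its signal in aggressive I was 5363, 5748 and 6155 on the 3 arrays, against 175.3, 750.4 and 335.7 in aggressive II. It was 1717, 2720 and 1904 in neutral I and 4522, 4363 and 3105 in neutral II. The arrays of the 4 populations did not overlap anywhere, in the order aggressive I, neutral II, neutral I, aggressive II. The mean of aggressive I, 5755 ± 396.2 (SD, n = 3), was 13.7 times that of aggressive II, 420.5 ± 296.8 (SD, n = 3). The difference of 3.71 on the log2 scale (SE 0.344) was the widest of all 8379 probe sets in this comparison. The population means of neutral II and neutral I differed by 1.89 times. In aggressive II the gene was dimmer than the filter value of 641.2 on 2 of 3 arrays, 1 of them below the 25th percentile of all intensities (271.6), so the ratio has an imprecise denominator. On the log2 scale used here it ran from 3.25 to 4.15 over the alternatives.

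CG16926 followed the same order of population means. In aggressive I the 3 arrays gave 19596, 19700.5 and 17406, and in aggressive II 3884, 3313 and 4653. It was 7972, 10752 and 5443 in neutral I and 17670.2, 12031 and 11844 in neutral II. Aggressive I and neutral II overlapped by 1 array, whereas neutral II, neutral I and aggressive II were separate from each other. The mean of aggressive I, 18901 ± 1296 (SD, n = 3), was 4.79 times that of aggressive II, 3950.0 ± 672.2 (SD, n = 3). On the log2 scale they differed by 2.29 (SE 0.242), the third widest of 8379. That order of the 4 means was seen in 4.34% of all kept probe sets. Over the 12 arrays the log2 signals of CG16926 and CG3984 had a Pearson r of 0.91, as a description of 2 genes measured on the same arrays. After subtracting each population's mean, r was 0.11. Both genes were chosen on differences between populations, so the r over the 12 arrays was in large part set by the choice. With 3 arrays a population, the r within populations is imprecise, and nothing is concluded from either.

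CG8661 was low in aggressive II and similar in the other populations. Its signal was 242.9, 222.7 and 292.6 in aggressive II. In aggressive I it was 564.5, 1451 and 612.9, in neutral I 635.7, 869.3 and 715.1, and in neutral II 957.9, 831.2 and 998.8. No array of aggressive II reached any array of the others, and aggressive I, neutral I and neutral II overlapped each other. The mean of 252.7 ± 36.0 in aggressive II compared with 876.2 ± 498.6 in aggressive I (SD, n = 3), a ratio of 3.47 and a log2 difference of 1.42 (SE 0.266). The high value of aggressive I was that of array 2, the array with the highest 18S ribosomal RNA signal. Without it the log2 difference was 1.04. The gene's mean over 12 arrays, 699.6, was just above the filter of 641.2, and its mean in aggressive II was below it.

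CG13239 was low in aggressive I. Its signal there was 469.8, 541.3 and 855.3, below every other array. Aggressive II had 1428, 1463 and 2019. The neutral populations had 1139, 1425 and 1633 (neutral I) and 1166.1, 1166.0 and 979.2 (neutral II). Aggressive II overlapped neutral I, and neutral I overlapped neutral II. The mean of aggressive II, 1637 ± 331.7, was 2.63 times that of aggressive I, 622.1 ± 205.1 (SD, n = 3), a log2 difference of -1.25 for aggressive I minus aggressive II (SE 0.212). The log2 signal of CG13239 ran against that of CG16926 (r = -0.78) and CG3984 (r = -0.70) over the 12 arrays. Within populations these correlations were near 0 and 0.20. The choice of the genes shaped the correlations over the 12 arrays here too.

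Summed signals of markers of other tissues also differed between populations, and their part in the values of these genes was not tested. The list of 10 fat body symbols holds the gene apolpp in different spellings, and 8 of its genes were measured. Their summed signal was higher in aggressive I (253054 to 266654) than in aggressive II (213503 to 244797). It was also higher in neutral II (242655 to 264698) than in neutral I (206441 to 222932), the same pair of directions as for CG3984 and CG16926. The median log2 difference over the 7 kept probe sets was 0.06 between the aggressive and -0.03 between the neutral populations. Lsp2, a larval serum storage protein, was the 1 fat body marker that passed, with a log2 difference of 0.59 for aggressive I minus aggressive II (limma adjusted p = 0.0417) and -0.82 for neutral I minus neutral II (limma adjusted p = 0.0068). Without Lsp2 the summed signals of the remaining 7 genes overlapped between all populations, from 156144 to 182527. Neuron markers, 6 of 8 measured, had sums in the opposite order, with values of 33107 to 37180 in aggressive I and 34596 to 36563 in neutral II against 39988 to 42128 in aggressive II and 39513 to 41357 in neutral I. Sums were highest in aggressive II for muscle markers (8 of 12 measured, 125664 to 128669 against 104866 to 120364 elsewhere) and for head cuticle markers (7 of 8 measured, 123083 to 133653 against 91728 to 115110). For cuticle the median log2 difference over the 6 kept probe sets had the other sign, 0.16 for aggressive I minus aggressive II, and for muscle it was -0.06. No single neuron, muscle or cuticle marker passed in either within-regime comparison, and no marker was at 0.

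CG42329 and CG5397 are adjacent and do not overlap in the RefSeq table. Where the brighter probe set of CG42329 was high, CG5397 was low. The brighter probe set of CG42329 gave 5422, 5056 and 5521 in aggressive I and 8508, 8523 and 8201 in neutral I. It gave 3228, 3072 and 3122 in aggressive II and 2824, 2700 and 2803 in neutral II. The arrays of all 4 populations were separate, with the 2 populations numbered I above the 2 numbered II. Neutral I had 3.03 times the mean signal of neutral II (8410.5 ± 181.7 against 2775 ± 66.4, SD, n = 3) and aggressive I had 1.70 times that of aggressive II (5333 ± 245.3 against 3141 ± 79.8).

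CG5397 gave 780.3, 723.3 and 787.2 in aggressive I and 692.9, 805.3 and 661.9 in neutral I. It gave 2293, 3023 and 2781 in aggressive II and 2920.3, 3740.4 and 2625 in neutral II. The populations numbered I overlapped each other, those numbered II overlapped each other, and no array of the first 2 reached any of the last 2. The mean of neutral II, 3095 ± 578.0, was 4.30 times that of neutral I, 720.0 ± 75.5, and the mean of aggressive II, 2699 ± 371.9, was 3.53 times that of aggressive I, 763.6 ± 35.1 (SD, n = 3). On the log2 scale the differences were -2.01 for neutral I minus neutral II and -1.65 for aggressive I minus aggressive II (SE 0.156 each), ranks 3 and 10 by size of 8379. The labels do not say that the populations with the same number share an origin.

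Over the 12 arrays the log2 signals of CG5397 and of the brighter probe set of CG42329 had r = -0.94, and CG5397 was the gene most unlike this probe set among 7459 probe sets of other single genes. Within populations r was 0.12. Both genes were chosen on differences between populations, so this r and this rank largely follow from the choice and nothing is read from them. How low the lowest r is for a typical probe set was not computed. The gene most like CG42329 by this measure was CG11841 (r = 0.976), whose means were 11928 and 14178 in aggressive I and neutral I against 9096 and 8586 in aggressive II and neutral II. CG11841 was in turn the gene most unlike CG5397 (r = -0.955).

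**Figure D2:**
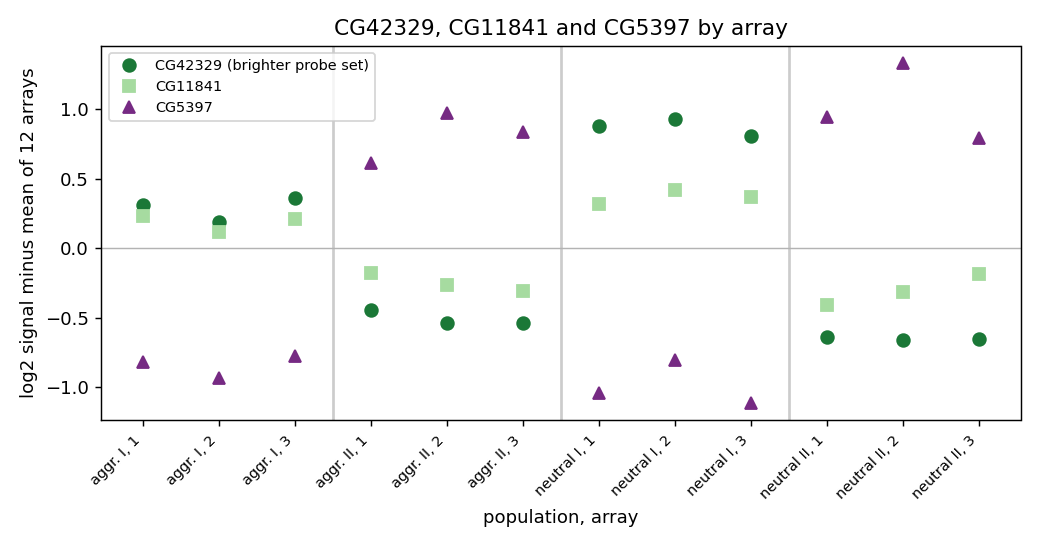
Log2 signal minus the mean of 12 arrays (vertical axis) on each array (horizontal axis, grouped by population) for CG42329 (brighter probe set), CG11841 and CG5397. CG42329 and CG11841 were above their means on all arrays of aggressive I and neutral I and below on all arrays of aggressive II and neutral II, and CG5397 was the reverse.

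The dimmer probe set of CG42329 differed from the brighter one in part. RefSeq lists CG14343 and CG5156 as earlier locus tags of this gene, which was once annotated as separate models, and the tables used here do not say which model each probe set was designed on. Its signal was 2349, 1948 and 1942 in neutral I, above every other array. It was 1123, 1039 and 1192 in neutral II, 493.4, 1615 and 1089 in aggressive I and 735.2, 1044 and 567.1 in aggressive II, and these 3 populations overlapped each other. Both probe sets were therefore highest in neutral I. The difference between aggressive I and II was 0.79 on the log2 scale with the brighter probe set (SE 0.0909) and 0.36 with the dimmer one (SE 0.322) or 0.02 without aggressive I array 2. With aggressive I array 1 left out instead, it was 0.78. The log2 signals of the 2 probe sets had r = 0.59 over the 12 arrays and -0.31 within populations. With CG5397 the dimmer probe set had r = -0.48 over the 12 arrays.

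CG34227 was bright in 3 populations and lower in neutral II. Its aggressive I arrays read 70357, 74600 and 74635, those of aggressive II 77491, 75094 and 57811, and those of neutral I 54311, 69925 and 62265. In neutral II it was 26307, 23449 and 23410.0. Aggressive I and II overlapped, as did aggressive II and neutral I, whereas every array of neutral II was below all the others. The mean of neutral I was 2.55 times that of neutral II (62167 ± 7808 against 24389 ± 1662, SD, n = 3), with a log2 difference of 1.29 (SE 0.145). The aggressive populations differed by 1.04 times. Blood cell markers, 7 of 8 measured, had their highest summed signal in neutral II (33297 to 36606 against 24498 to 30390 elsewhere). Their median log2 difference was -0.23 for neutral I minus neutral II. None of them passed, and their part was not tested.

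**Figure D3:**
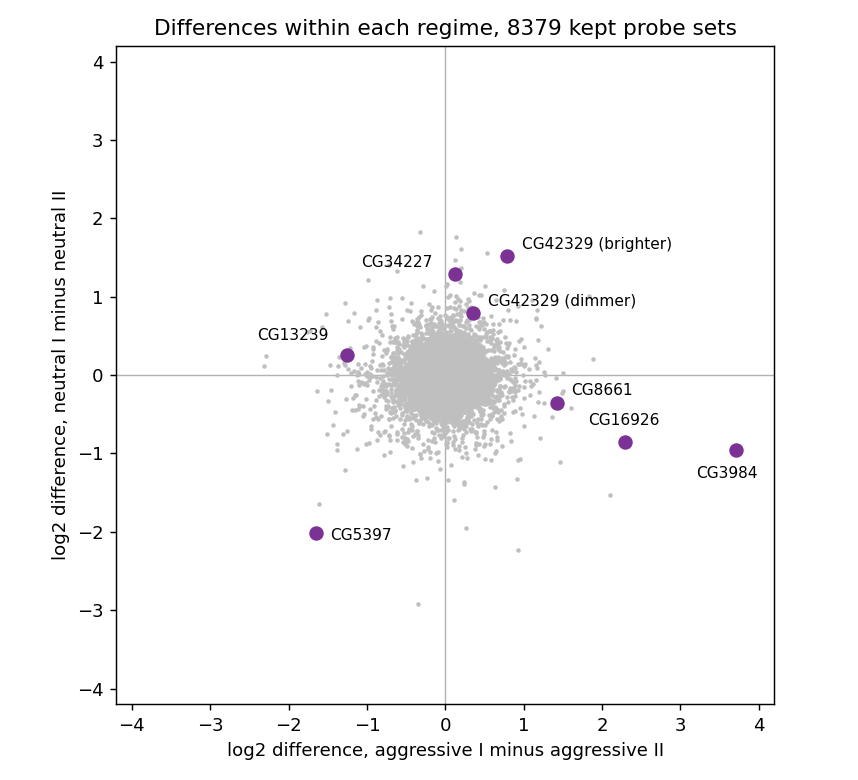
Log2 difference between the aggressive populations (horizontal axis) and between the neutral populations (vertical axis) for 8379 kept probe sets (grey) and the 8 of the listed genes (purple). CG3984 and CG16926 lay far out to the right, CG5397 at the lower left, and CG34227 and CG42329 (brighter probe set) at the top.

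As a description of the chosen genes, 6 of the 8 probe sets were past limma's adjusted p of 0.05 (Benjamini-Hochberg) between aggressive I and II, where 0.597% of all kept probe sets were, and 3 were between neutral I and II, where 0.286% were. These contrasts chose the genes, so the counts are no test of them and nothing is read from the counts. With any single array left out, the count between aggressive I and II was 4 or 5, and that between neutral I and II stayed at 3. Arrays of aggressive I and II did not overlap for 6 of the 8 (18.1% of all kept probe sets), and arrays of neutral I and II for 6 of the 8 (14.8%). For the pairs across regimes, non-overlap over all probe sets was 18.6% for aggressive I and neutral I, 19.7% for aggressive I and neutral II, 14.1% for aggressive II and neutral I, and 15.4% for aggressive II and neutral II. CG3984 and CG16926 differed in opposite directions in the 2 regimes, and CG5397 and CG42329 (brighter probe set) in the same direction. CG8661, CG13239 and CG34227 had array ranges that were separate in 1 regime and overlapped in the other.

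The comparison of the regimes, aggressive against neutral, was not used to choose the genes, although a gene that is high or low in 1 population also moves it. With population as a random block, 0 of the 8 probe sets passed over all 8379 (limma adjusted p between 0.361 and 0.998), where 0.191% of all probe sets did. At an unadjusted limma p under 0.05 there were 2 of the 8, CG34227 and the dimmer probe set of CG42329, where 6.78% of all probe sets were. CG34227 had a log2 difference of 0.89, aggressive minus neutral (SE 0.274, 95% interval 0.30 to 1.49, limma adjusted p = 0.361). That value rested on neutral II: without that population it was 0.25, and without neutral I it was 1.54. With fixed population means, whose error is the spread between arrays alone, it passed (adjusted p = 0.00171). With 1 mean per population its SE was 0.402 (limma adjusted p = 0.989). The random block used a single correlation of 0.0647 for all probe sets. Its intervals may therefore be too narrow for genes that differ between populations.

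The dimmer probe set of CG42329 had a log2 difference of -0.75 (SE 0.285, interval -1.36 to -0.13, limma adjusted p = 0.603), whereas the brighter one had -0.22 (SE 0.341, interval -0.96 to 0.52). CG8661 had -0.71 (SE 0.343, interval -1.45 to 0.03), a difference that was 0.00 without aggressive II and -1.42 without aggressive I. CG3984 had -0.83 with an interval from -2.53 to 0.86, and the sign turned without aggressive II (1.02). Without aggressive I it was -2.69. Such a fit sets 1 aggressive population against the neutral ones. The genes were chosen on differences between populations, so only sizes are given for these fits. CG16926 had -0.23 (SE 0.507) and CG13239 -0.26 (SE 0.291), and neither passed. CG5397, which differed between populations in both regimes, had a regime difference of -0.04 (SE 0.519, interval -1.15 to 1.08). The intervals of CG3984, CG16926 and CG5397 all include regime differences of more than 1 on the log2 scale.

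**Figure D4:**
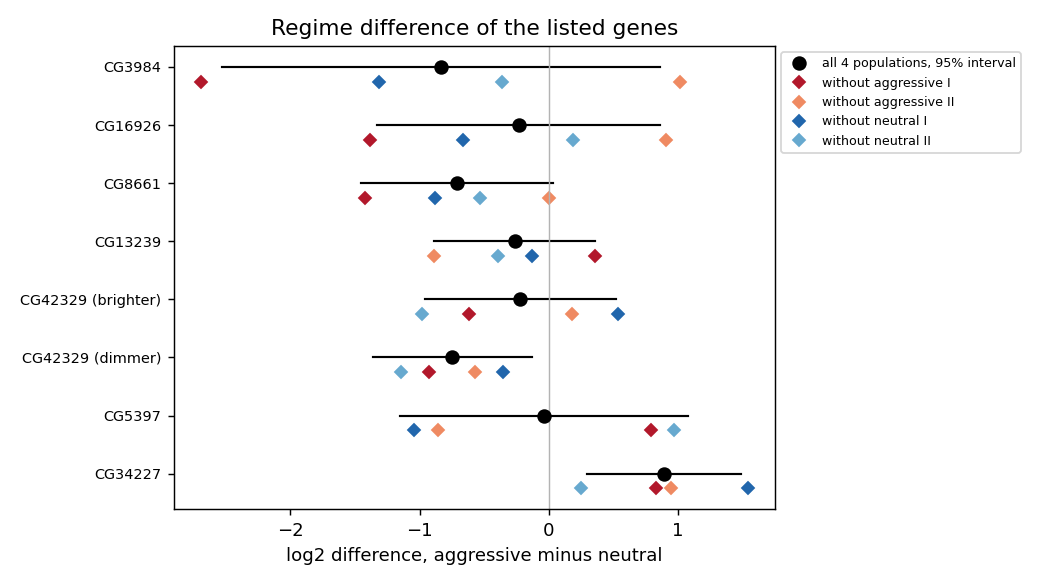
Log2 difference of aggressive minus neutral populations for the 8 probe sets (black points) with 95% intervals from limma, and the value with each population left out (diamonds). CG34227 lay above 0 in all 5 fits and the dimmer probe set of CG42329 below 0 in all 5, while CG3984, CG16926, CG13239, the brighter probe set of CG42329 and CG5397 crossed 0 when 1 population was left out.

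When the aggressive and neutral populations were compared number by number, 4 of the 8 probe sets had all arrays separated one way in the I pair and the other way in the II pair, where 1.87% of all probe sets had. Opposed pairs are made of the contrasts that chose the genes, so nothing is read from this count. The labels also give no ground for pairing populations by number. CG3984 was higher in aggressive I than in neutral I by 1.50 on the log2 scale and lower in aggressive II than in neutral II (-3.16, SE 0.344 each). CG16926 had 1.34 and -1.80 (SE 0.242). CG13239 had -1.02 and 0.49 (SE 0.212), and the brighter probe set of CG42329 had -0.58 and 0.14 (SE 0.0909).

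The genes next to the listed genes give a view that the choice did not use. For each listed gene the 3 nearest genes with a probe set on each side were taken from the RefSeq order, listed genes apart, which gave 36 genes with 39 probe sets. Of these, 18 probe sets of 17 genes passed the filter on dim probe sets. None of the 6 neighbours of CG42329 and CG5397 did, so the mirrored pair could not be set against its surroundings.

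Between aggressive I and II, 1 of the 18 passed, CG6912, where 0.597% of all kept probe sets did. CG6912 is 2 genes from CG3984, and the antisense RNA gene asRNA:CR45600, counted between them, overlaps both in the RefSeq table. In aggressive I its signal was 1400.1, 1925 and 1437, against 650.0, 583.6 and 622.6 in aggressive II. It was 1097, 874.4 and 1473 in neutral I and 953.0, 1312.5 and 1019 in neutral II. All arrays of aggressive II lay below all the others, and the neutral populations overlapped. Its log2 difference between aggressive I and II was 1.27 (SE 0.183, limma adjusted p = 0.0120), in the direction of CG3984, and it was near 0 between neutral I and II (adjusted p = 0.999), where CG3984 had -0.95. The call was lost without aggressive II array 2 and without aggressive II array 3.

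Between neutral I and II, 0 of the 18 passed by limma, where 0.286% of all kept probe sets did. At an unadjusted p under 0.05 there were 2 of the 18 here (8.45% of all kept probe sets) and 2 between the aggressive populations (12.9%). Apart from CG6912, the neighbours' log2 differences were at most 0.43 in size between the aggressive and 0.48 between the neutral populations. The median size over the 18 was 0.17 and 0.12, against 0.17 and 0.14 over all kept probe sets. The genes on either side of CG16926, CG15120 and CG11007, had 0.05 and 0.36 between the aggressive populations (SE 0.254 and 0.225), and did not pass. The same held for Fim and CG5445 beside CG8661, with 0.25 and 0.20 (SE 0.218 and 0.108).

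**Figure D5:**
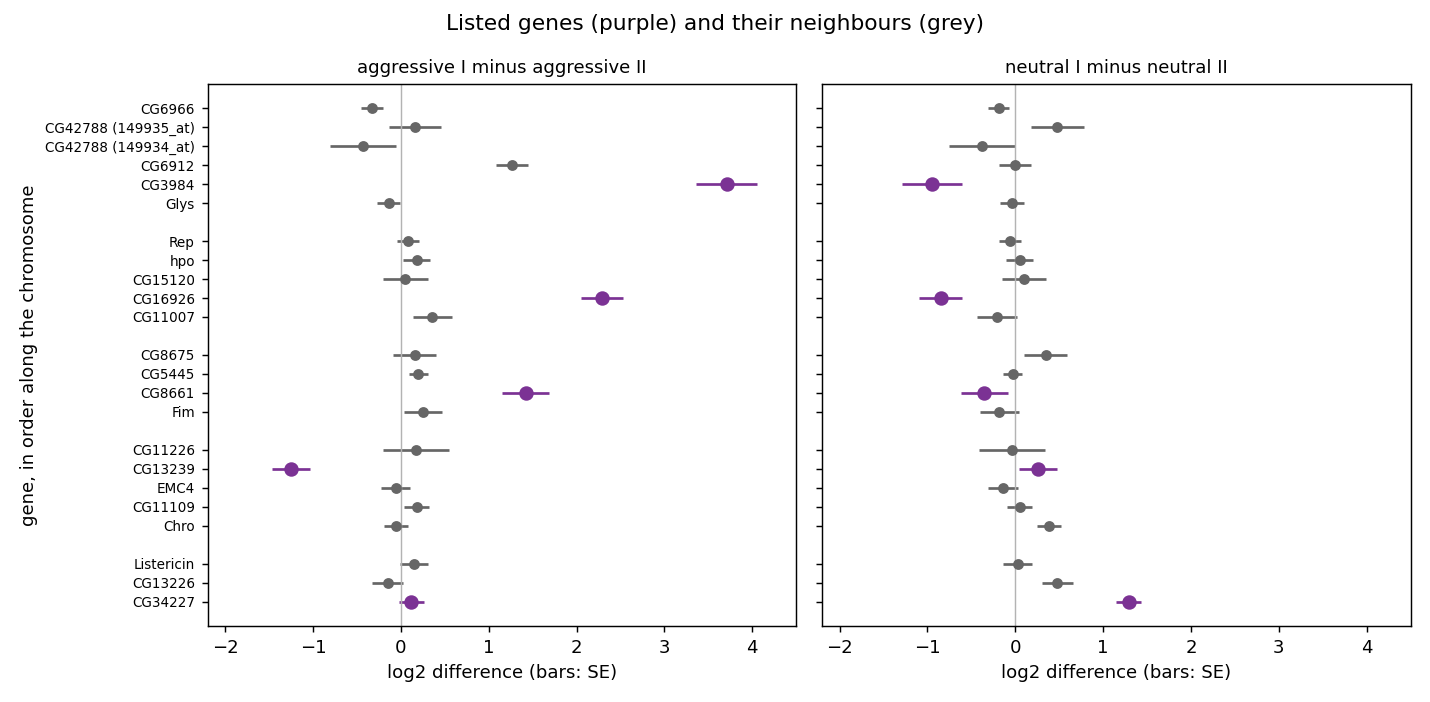
Log2 differences with SE bars for listed genes (purple) and those of their neighbours that passed the filter (grey), in order along the chromosome, between the aggressive populations (left) and between the neutral populations (right). CG6912, near CG3984, stood at 1.27 in the left panel, and every other neighbour shown was within 0.48 of 0 in both panels.

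Genes with a pattern most like each listed gene were taken as the 3 probe sets of other genes with the highest Pearson r of log2 signal over the 12 arrays. For a typical probe set the highest such r was 0.89 and the third highest 0.851 (medians over 7461 probe sets). An r near these medians is therefore usual with 12 arrays. How unusual the higher values given below are was not computed. CG34227 was most like CG11594 (r = 0.958), CG3397 (0.949) and Cyp12d1-d (0.948), a cytochrome P450. CG11594 had means of 13347, 13289 and 14293 in aggressive I, aggressive II and neutral I against 6720 ± 209.3 in neutral II (SD, n = 3). Cyp12d1-d had 2677, 2379 and 2672 against 770.0 ± 52.3. Both had the shape of CG34227, whereas CG3397 was also lower in neutral I (4792 ± 255.8) than in the aggressive populations (9586 and 8999) and lowest in neutral II (1311 ± 244.4).

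CG3984 was most like CG16772 (r = 0.946), CG3301 (0.936) and CG13026 (0.932). Their ranges were much narrower: CG3301 had 15471 ± 627.5 in aggressive I and 11106 ± 1422 in aggressive II, a smaller ratio than that of CG3984. CG16926 was most like Ugt35C1 (r = 0.93), a UDP-glycosyltransferase, CG7289 (0.919) and CG6421 (0.917). CG8661 was most like Sp7 (r = 0.907), a serine protease, CG9416 (0.893) and Phk-3 (0.889). Sp7 had means of 5004 and 3701 in the aggressive populations I and II and of 4483 and 4928 in the neutral ones, so it too was lowest in aggressive II. CG13239 was most like Axud1 (r = 0.923), Tgi (0.903) and dpr8 (0.893), and dpr8 had 929.9 ± 287.0 in aggressive I against 2048 ± 110.3 in aggressive II.

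CG5397 was most like firl (r = 0.932), CG5853 (0.915) and CG14277 (0.913), with firl at 2124 and 2136 in the populations numbered I and 2757 and 2965 in those numbered II. After CG11841, the brighter probe set of CG42329 was most like CG9747 (0.895) and CG7299 (0.856). The dimmer probe set was most like osp (0.838), Nlg3 (0.831), a neuroligin, and Cpr11B (0.829), a cuticle protein. The 2 probe sets of CG42329 thus had no gene in common among their nearest 3.

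Genes with only a CG number were called in shares that can be set beside those of other genes. Between aggressive I and II, 16 of 2514 such probe sets passed (13 higher in aggressive I, 3 lower), or 0.636%, against 0.526% of the 4947 probe sets of genes with another symbol and 0.597% of all. Between neutral I and II, 9 of 2514 passed (0.358%), against 0.202% of genes with another symbol. The median size of their log2 difference was 0.17 and 0.15, against 0.17 and 0.14 over all kept probe sets. The listed genes, chosen on these contrasts, supply 6 of the 16 and 3 of the 9. The higher shares of genes with only a CG number are therefore not read as a result.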

How the data were processed

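The deposited values are probe set intensities made by the authors with MAS5, per the submitters' processing notes, whose version is not given in the sources used here. From the values, each array has the same mean once the lowest and highest 2% of probe sets are set aside. Of 14010 probe sets, 44 are controls. Of the other 13966, 12443 have 1 gene in the array annotation, 327 several and 1196 none, and 12394 matched the Drosophila melanogaster RefSeq table (Release 6 plus ISO1 MT) by Entrez identifier. Because the values come without a build, RefSeq gave only names and gene order. No sequences were used here, so the protein comparison planned for the choice of named genes was not run.

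Intensities were transformed as log2(intensity + 94.6), the added value being their 10th percentile, then each array was centred on its median. Probe sets whose mean exceeded the 40th percentile (641.2) were tested, 8379 in all. Folds on this scale understate changes of dim probe sets, and signals and their ratios in the text are deposited intensities. Tests used limma 3.58.1 and statmod 1.5.0 in R 4.3.3 with Benjamini-Hochberg adjustment at 0.05. Regimes were compared with population as a random block (consensus correlation 0.0647) and populations with fixed means over all 12 arrays. The fits were tested on simulated data that held no differences between populations other than the changes put in. That check does not cover the regime fit for genes that differ between populations. By the plan, the genes named were the 7 listed genes, their 3 most similar probe sets and the called neighbours. Outside it, some neighbours that were not called, the markers Lsp2 and apolpp and some genes most unlike a listed gene are also named. The members and lists were chosen with earlier results of these data known. Replicate numbers did not pair the arrays: deviations of same-numbered arrays correlated between -0.0809 and 0.0993 over 18 pairs. No 2 arrays held the same values.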

Additional observations from a re-analysis of the deposited data

Results flagged for a closer look

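For 4 probe sets, every array of one pair of populations moved one way between aggressive and neutral and every array of the other pair moved the opposite way. These differences between the pairs were not tested, since they are made of the contrasts that chose the genes, and 1.87% of all kept probe sets behaved in this way. For CG3984 the log2 difference of aggressive minus neutral was 1.50 in the I pair and -3.16 in the II pair. For CG16926 it was 1.34 and -1.80. For CG13239 it was -1.02 and 0.49. For the brighter probe set of CG42329 it was -0.58 and 0.14.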

How the results depend on the processing

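The direction of the within-regime differences that passed did not change under any alternative. The regime differences changed sign in 16 of 213 fits of single probe sets, when a population or a single array was left out. CG16926 had 0.91 without aggressive II and 0.19 without neutral II. CG3984 had 1.02 and CG8661 0.00 without aggressive II, and CG13239 had 0.36 without aggressive I. The brighter probe set of CG42329 had 0.18 without aggressive II and 0.54 without neutral I, and CG5397 had 0.79 without aggressive I and 0.97 without neutral II. With single arrays left out, CG5397 ran from -0.24 to 0.21 and CG16926 from -0.44 to 0.02.

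Of the 8 listed probe sets, 1 passed between regimes with fixed population means (CG34227) and 0 with each single array left out. Fits without a whole population leave 1 population in a regime, so calls of the listed probe sets are not read from them. Between regimes, 16 probe sets were called in all. The count was 10 with no filter, 25 with the filter at the 60th percentile, 35 with a trended and robust variance, 7 with the replicate block, 70 with fixed population means and 0 with 1 mean per population. It was 34 without aggressive I, 44 without aggressive II, 26 without neutral I, 2 without neutral II, and 7 to 21 without single arrays, with under 11 without aggressive I array 1 or 3, aggressive II array 1 or 3, or neutral II array 1 or 3. Between aggressive I and II the count of 50 (35 higher, 15 lower in aggressive I) was 26 with no filter, 87 with the 60th percentile filter, 125 with trended and robust variance, 29 with the replicate block and 23 to 49 without single arrays, being 23 to 32 without any 1 array of the aggressive populations and 31 without neutral II array 2. It split 28 and 22 both without centring and after quantile normalization. Between neutral I and II the count of 24 (10 and 14) was 47 with the 60th percentile filter, 59 with trended and robust variance and 15 to 24 without single arrays (15 without neutral I array 1 or neutral II array 1), and split 16 and 14 without centring and 15 and 12 after quantile normalization. With both low-correlation arrays left out (aggressive I array 2, neutral I array 3), a setting chosen after seeing the data, 22 were called between aggressive I and II. The call of CG6912 became 0 with the 60th percentile filter, which leaves it out, and 0 to 1 without single arrays. The causes of these shifts were not tested. The replicate numbers do not pair the arrays, and the block left the listed probe sets called at 0 between regimes and 3 between neutral I and II, with 5 in place of 6 between aggressive I and II. The last count was 4 to 5 without single arrays and 4 with no filter or the 60th percentile filter. Dim signal limits CG3984 and CG8661 in aggressive II, and 2 populations a regime limit all regime differences.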

Other observations

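The genes whose log2 signal ran most against a listed gene over the 12 arrays were looked up after the values had been seen. Sdc, the heparan sulfate proteoglycan syndecan, was the gene most unlike CG8661 (r = -0.963). Its signal was 14746 ± 725.5 in aggressive II, against 11515 ± 1234 in aggressive I (SD, n = 3). The neutral populations had 12573 ± 828.5 and 11280 ± 520.8. Usp8, a ubiquitin-specific protease, was most unlike CG34227 (r = -0.931), with 6849 ± 445.5 in neutral II against 4830 ± 231.1, 5116 ± 179.0 and 5481 ± 158.7 in aggressive I, aggressive II and neutral I. In both genes the population that stood apart was the one in which the listed gene was low, by a much smaller ratio. Not every gene looked up had this shape. CG6418, most unlike CG3984, was also highest in aggressive II, and CIA30, most unlike CG13239, in aggressive I. Snrk, most unlike CG16926, had 4261 in aggressive II but 4288 in neutral I. These are descriptions of the same arrays, with no test.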
